A study of Mus musculus with 12 samples.

Results

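The genes described here are the mouse gene models with a provisional Gm symbol (Gm followed by digits only) that were abundant in oocytes. They were selected on their level: the mean over the 6 value columns of the table had to reach 5 FPKM (fragments scaled to transcript length and sequencing depth), with the line of largest mean kept for each symbol. This gave 102 of the 1518 Gm symbols, among 25162 genes in all. The 2 just inside the cutoff were Gm19299 and Gm5779, both with a mean of 5.14 FPKM, and the 2 just outside were Gm10324 (4.98) and Gm16845 (4.72). Since the level chose them, their abundance is a description and not a result. The mean also gives weight to columns with high values, so a gene could enter through 1 column. Of the 102, 96 also reached a mean of 5 FPKM over the 3 WT columns alone, 81 did so without the KO FGO column, and 31 had at least 5 FPKM in every column.

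The series measured polyadenylated RNA of oocytes in which Rnaseh1 was floxed (headed fl/fl in the table and WT in the sample labels) or deleted in the oocyte (headed oo-/- and labelled KO). Rnaseh1 encodes RNase H1, a nuclease that removes RNA paired with DNA, as in R-loops. The stages are labelled NGO, GO and FGO, names commonly used for oocytes before growth, during growth and at full size. Each of the 12 labelled samples, 2 per genotype and stage, held 10 oocytes lysed with 100 pg of ERCC spike-in RNA. The sources used here name neither the Cre driver nor the age of the mice. The values came as 1 column per genotype and stage, adjusted by the authors to the spike-in, so the differences below come without replicates and without p-values, SDs or n. Read depth is unknown. A gene is called higher or lower when 2 columns differ by at least 1 on the log2(FPKM + 1) scale. That is 2-fold for a gene well above 1 FPKM, while a low gene needs a larger ratio: Gm17751, at 0.611 FPKM in WT NGO, was at 9.19% of this in KO and was not called. For the rescaled values each column was brought to a common level, by the median over genes of the ratio to the gene's geometric mean across the 6 columns.

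Rnaseh1 itself, which tests the labels, was at 8.61, 27.8 and 29.1 FPKM in WT NGO, GO and FGO and at 0.931, 3.10 and 8.02 FPKM in KO. All 14 oocyte markers (Zp3, Gdf9, Ddx4 and others) were at 1 FPKM or more in every column. The 12 granulosa markers summed to between 2.26 and 14.7 FPKM in the 3 WT columns and to 4.50, 4.76 and 41.5 FPKM in KO NGO, GO and FGO. In KO FGO 7 of these 12 reached 1 FPKM, while Foxl2 was listed at 0. In such samples more cells of a type and more RNA per cell cannot be told apart.

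A Gm symbol is a placeholder for a mouse gene model that has no established name, and it covers very different things. Some are coding members of families that multiplied in rodents, such as the PRAME family of leucine-rich-repeat proteins, whose oogenesin branch is known from oocytes. Others are long non-coding RNAs, and many of those made in mouse oocytes are known to start in retrotransposon sequence. Still others are processed pseudogenes, which are intronless copies of messenger RNAs pasted back into the genome. Oocytes store RNA while they grow and then fall silent in transcription, so an RNA level in this cell is the sum of synthesis and storage.

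By RefSeq annotation 49 of the 102 were long non-coding RNAs, 33 protein-coding and 20 pseudogenes. Of all Gm symbols in the table, 12.1% of the pseudogenes were among the abundant genes, against 6.45% of the long non-coding RNAs and 6.13% of the coding genes. The 3 classes also differed in build. A GENCODE transcript was found for 89 of the 102, with a median length of 1451 nt, and 15 had a single exon, 11 of which were pseudogenes. The genes lay on 19 chromosomes, with 11 on chromosome 5, 9 on X and 8 on chromosome 4.

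Start-site sequence was available from RefSeq (GRCm38.p6) for 64 of the 102, as 67 windows from 250 bases before to 50 bases after the annotated start. Windows that resembled the window of some other gene (at least 80% identity over at least 100 bases) were found for 45.3% of these 64, against 24.1% of all 27025 genes with a window. Among the 39 long non-coding genes, 17.9% resembled the windows of 10 or more other genes, against 5.81% of all long non-coding genes. A set of 6 Gm genes shared 1 such repeated block, chosen as genes whose windows resembled those of 10 or more other genes, at least 1 more such Gm gene among them. They are shown because the block is the sequence they have in common. Likeness of windows chose these 6 among the 102, so a run shared by all of them is a description and not a result. Their windows lie at chr9:67133311-67133610 (Gm19299, plus strand), chr3:34716613-34716912 (Gm3143, minus), chr15:90353460-90353759 (Gm36480, plus), chr10:9684472-9684771 (Gm6150, plus), chrX:60456146-60456445 (Gm7073, minus) and chrX:167070321-167070620 (Gm8817, minus). Each is written 5′ to 3′ on the strand of its gene, and the capitals mark the 9-base core GTTCTATAA or its reverse complement TTATAGAAC, the longest run present in all 6.
Gm19299: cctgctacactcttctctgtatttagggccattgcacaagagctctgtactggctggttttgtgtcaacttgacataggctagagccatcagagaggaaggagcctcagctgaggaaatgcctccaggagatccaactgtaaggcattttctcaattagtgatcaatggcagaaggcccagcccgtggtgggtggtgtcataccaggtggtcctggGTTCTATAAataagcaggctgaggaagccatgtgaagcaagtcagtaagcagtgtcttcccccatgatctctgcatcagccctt
Gm3143: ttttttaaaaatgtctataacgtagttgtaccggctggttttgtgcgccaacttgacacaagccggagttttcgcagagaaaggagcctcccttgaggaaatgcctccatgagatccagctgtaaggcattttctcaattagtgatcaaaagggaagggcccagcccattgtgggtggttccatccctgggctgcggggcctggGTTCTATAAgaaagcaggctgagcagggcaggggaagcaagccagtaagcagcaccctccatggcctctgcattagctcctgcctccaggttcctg
Gm36480: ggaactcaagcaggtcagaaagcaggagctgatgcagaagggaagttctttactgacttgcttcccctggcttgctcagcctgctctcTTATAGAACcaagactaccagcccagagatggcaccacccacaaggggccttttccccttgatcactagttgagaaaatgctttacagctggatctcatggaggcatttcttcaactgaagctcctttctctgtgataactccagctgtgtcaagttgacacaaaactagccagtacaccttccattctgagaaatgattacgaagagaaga
Gm6150: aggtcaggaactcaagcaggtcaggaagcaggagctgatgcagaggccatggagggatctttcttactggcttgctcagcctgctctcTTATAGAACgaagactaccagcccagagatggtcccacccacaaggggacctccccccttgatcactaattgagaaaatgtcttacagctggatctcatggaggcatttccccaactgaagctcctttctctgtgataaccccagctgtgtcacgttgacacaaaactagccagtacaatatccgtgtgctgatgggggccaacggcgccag
Gm7073: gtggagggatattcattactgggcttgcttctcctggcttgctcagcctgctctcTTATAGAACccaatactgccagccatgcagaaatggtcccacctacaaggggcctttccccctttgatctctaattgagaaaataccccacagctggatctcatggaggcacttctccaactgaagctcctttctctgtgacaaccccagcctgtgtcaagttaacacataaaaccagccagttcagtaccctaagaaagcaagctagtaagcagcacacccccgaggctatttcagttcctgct
Gm8817: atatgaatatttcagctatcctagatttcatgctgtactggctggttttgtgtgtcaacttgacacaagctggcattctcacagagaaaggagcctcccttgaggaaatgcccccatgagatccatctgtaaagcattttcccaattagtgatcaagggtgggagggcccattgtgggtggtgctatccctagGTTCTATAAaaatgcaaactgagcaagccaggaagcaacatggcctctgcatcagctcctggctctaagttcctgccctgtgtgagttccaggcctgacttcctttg

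The core read forward in Gm19299, Gm3143 and Gm8817, where it began 34, 46 and 57 bases before the start, and in reverse in Gm36480, Gm6150 and Gm7073. It occurred on either strand in 0.298% of the 32851 windows searched. In all, 9 of the abundant Gm genes carried it, the 6 shown and the long non-coding genes Gm17751, Gm30551 and Gm16497. Gm36480, the most abundant of the 6, was at 1.53, 28.2 and 129 FPKM in WT NGO, GO and FGO and at 0.999, 14.8 and 142 FPKM in KO. Gm3143 was at 2.27, 29.0 and 49.2 FPKM in WT and at 0.473, 13.9 and 57.2 FPKM in KO. Gm8817 was at 0.0514, 0.357 and 16.4 FPKM in WT and at 0.141, 1.32 and 13.9 FPKM in KO. These 3 long non-coding RNAs were thus low in NGO and highest in FGO in both genotypes. Gm7073, a gene annotated as coding, followed the same course, with 0.319, 1.38 and 12.4 FPKM in WT and 0.0521, 1.62 and 20.3 FPKM in KO. Gm6150 reached 13.0 FPKM in WT FGO and 25.8 FPKM in KO FGO. Gm19299, also just inside the cutoff, was flat from GO to FGO in WT (5.41 and 5.32 FPKM).

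Short motifs were counted in the same 67 windows on both strands. TATAA stood in 37.3% of them, against 24.9% of all windows, and in 45% of the 40 windows of long non-coding genes. The core above contains TATAA, and without the long non-coding genes that carry or resemble the block the share was 31.2% of 32 windows. GGGCGG, the core of the GC box, stood in 17.9% of windows against 35.7% of all, and CCAAT in 41.8% against 37.4%. The median window of a long non-coding gene held 3.5 CG pairs, the median coding window 8 and the median of all windows 7.

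The most abundant Gm genes were PRAME-family genes. The table's Gm10436, Gm13023, Gm13103, Gm13084 and Gm13089 are named Pramel51, Pramel25, Pramel27, Pramel26 and Pramel23 in RefSeq, and Gm2042 is 98.9% identical to Gm10436 in transcript sequence. Gm10436 was at 89.3, 1096 and 1971 FPKM in WT NGO, GO and FGO and at 44.3, 568 and 2200 FPKM in KO. Gm13023 was at 75.7, 1085 and 1509 FPKM in WT and at 36.2, 599 and 2031 FPKM in KO. Gm2042 was at 121, 901 and 1474 FPKM in WT and at 68.7, 565 and 1851 FPKM in KO. Their steps from NGO to GO lay between 2.88 and 4.01 on the log2(FPKM + 1) scale in both genotypes (1.56 to 2.60 rescaled). In KO the 3 were at 47.8% to 62.8% of the WT level in NGO and GO. In FGO they were at 112% to 135% of WT as deposited, but rescaled they lay below it, with differences of -0.63, -0.36 and -0.46. The 3 form 1 near-identical set with C87977 and Oog1, so reads cannot be assigned among the 5 with confidence. Summed over the set, KO was at 58.0%, 61.1% and 136% of WT in NGO, GO and FGO (-0.34 rescaled in FGO). C87977 was also lower in KO in NGO and GO. Oog1 went the other way, with 0.0670 FPKM for WT and 9.54 FPKM for KO in NGO, and 148 and 216 FPKM in GO. The smaller Gm2042 line, left out here, was lower in KO even in FGO (671 against 994 FPKM). The 6 PRAME-family Gm genes named at the start of the paragraph held 32.2%, 56.7% and 60.8% of the summed FPKM of all 102 in WT NGO, GO and FGO. In KO they held 23.2%, 44.0% and 52.9%.

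Their start sites also resembled each other. Gm13023, Gm13084, Gm13089 and Gm13103 lie within 1 cluster on chromosome 4, at chr4:143789084-143789383 (plus strand), chr4:143816044-143816343 (minus), chr4:143702662-143702961 (minus) and chr4:143846247-143846546 (plus) as windows, and Gm2042 on chromosome 12 at chr12:87954230-87954529 (plus). The windows of Gm13023 and Gm2042, on different chromosomes, were 95.4% identical over 281 aligned bases, while the other pairs ranged from 74.3% to 82.4%. The pair is shown with Gm13103, a more distant copy. Capitals mark AAATCTGAA, 1 of 2 runs of 9 bases that all 5 windows hold on the gene's strand, which began 108 to 136 bases before the start and occurred in 0.426% of all windows.
Gm13023: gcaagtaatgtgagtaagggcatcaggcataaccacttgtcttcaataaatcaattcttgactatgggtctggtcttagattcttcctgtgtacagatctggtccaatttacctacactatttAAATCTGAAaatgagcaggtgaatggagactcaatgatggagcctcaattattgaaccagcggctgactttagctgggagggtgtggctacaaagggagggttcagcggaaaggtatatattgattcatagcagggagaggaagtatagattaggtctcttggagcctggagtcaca
Gm2042: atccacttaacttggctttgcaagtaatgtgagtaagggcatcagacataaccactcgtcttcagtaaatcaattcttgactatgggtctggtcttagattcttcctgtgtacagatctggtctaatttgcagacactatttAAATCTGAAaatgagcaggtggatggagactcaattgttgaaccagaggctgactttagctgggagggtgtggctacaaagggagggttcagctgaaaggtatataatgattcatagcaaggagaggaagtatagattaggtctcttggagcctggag
Gm13103: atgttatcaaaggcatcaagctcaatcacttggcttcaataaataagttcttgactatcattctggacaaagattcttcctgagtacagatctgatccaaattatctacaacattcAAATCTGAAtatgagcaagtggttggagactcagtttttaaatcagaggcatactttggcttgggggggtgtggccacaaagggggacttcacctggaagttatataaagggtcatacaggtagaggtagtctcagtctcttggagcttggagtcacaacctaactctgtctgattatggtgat

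The more distant family members did not all take the same course. Gm13103 was at 40.7, 292 and 639 FPKM in WT and at 16.2, 154 and 938 FPKM in KO. Its KO NGO level was 39.9% of WT, a difference of -1.27 on the log2(FPKM + 1) scale (-1.12 rescaled). Gm13084 was at 40.6, 148 and 273 FPKM in WT and at 25.8, 194 and 598 FPKM in KO. At GO it thus stood above WT, where the other Gm genes of this group stood below. Gm13089 was nearly off in NGO, with 0.147 FPKM in WT and 0.266 in KO. It reached 12.3 and 101 FPKM in WT GO and FGO, and 4.37 and 131 FPKM in KO. Its KO GO level was 35.6% of WT, a difference of -1.30 (-1.20 rescaled).

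A second group of related genes lies on chromosome 5. Gm3259 (Pramel47 in RefSeq) and Gm6367 form 1 set of near-identical transcripts with C87414 and AA792892, and Gm3286 is 99.8% identical to D5Ertd577e. Gm3259 was at 0.846, 16.9 and 55.7 FPKM in WT and at 0.739, 15.6 and 145 FPKM in KO. Gm6367 was at 7.54, 37.7 and 72.0 FPKM in WT and at 5.16, 31.0 and 159 FPKM in KO. Gm3286 was the exception: it was at 5.93, 27.3 and 9.31 FPKM in WT and at 7.36, 40.4 and 121 FPKM in KO. It thus lay 1.46 lower (log2) in WT FGO than in WT GO, and 3.56 higher in KO FGO than in WT FGO (2.75 rescaled). Summed with its 4 copies the FGO difference was 2.16, or 1.37 rescaled, and the WT step from GO to FGO was -0.26, no longer a call. Gm3286 stood on 4 lines of the table, of which only the largest was used, also in the sum. The lines disagreed between genotypes at GO. There 1 line was at 21.1 FPKM in WT and 0.0283 FPKM in KO, and another at 0.0126 and 27.6 FPKM. At FGO all 4 lines were higher in KO than in WT.

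**Figure D1:**
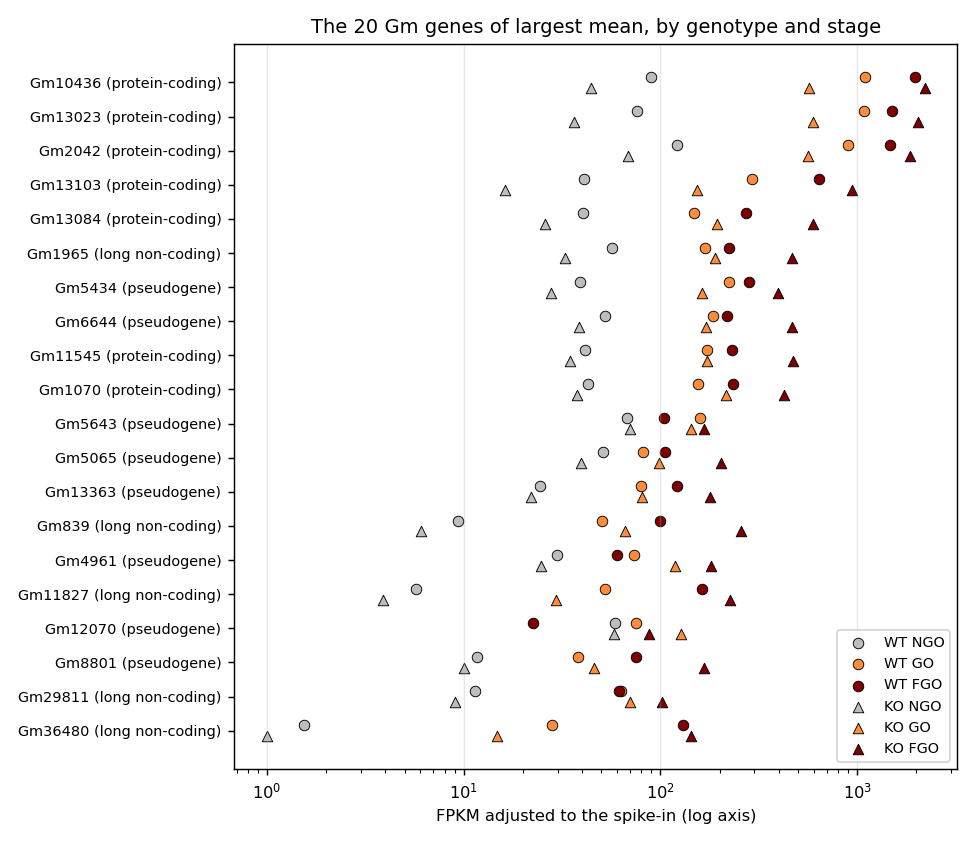
FPKM adjusted to the spike-in (log x axis) of the 20 Gm genes of largest mean, 1 row per gene, with circles for WT and triangles for KO and colour for the stage. Gm10436 spans 44.3 to 2200 FPKM, and Gm12070 is the only 1 of the 20 whose lowest value lies in WT FGO, at 22.5 FPKM.

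Most of the 33 coding genes lie outside these PRAME groups. Gm11545, whose transcript resembles Tmem92 transcripts, was at 41.5, 172 and 231 FPKM in WT and at 34.6, 172 and 471 FPKM in KO. Gm1070 was at 42.7, 155 and 234 FPKM in WT and at 37.5, 215 and 425 FPKM in KO. RefSeq annotates both as coding, while GENCODE M21 calls the first an unprocessed pseudogene and the second a lincRNA. Gm4981, a gene related to Duxf3, the Dux factor that drives genes of the 2-cell embryo, was at 1.25, 12.6 and 14.8 FPKM in WT and at 0.397, 7.75 and 17.6 FPKM in KO. Gm21818, a near-identical copy of Tcstv1, also a gene of the early embryo, was at 0.937, 12.7 and 18.7 FPKM in WT and at 0.313, 4.10 and 14.9 FPKM in KO. Its GO difference was -1.42 (-1.32 rescaled), and summed with Tcstv1 it was called lower at NGO as well (-1.56).

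The pseudogenes were the class with the highest median level: 9.63, 27.8 and 27.8 FPKM in WT NGO, GO and FGO and 7.58, 34.1 and 85.9 FPKM in KO. The coding genes had medians of 2.34, 12.6 and 18.7 FPKM in WT, and the long non-coding RNAs 2.04, 12.5 and 17.0 FPKM. Gm5434, related to Ube2f (93.1% identity), a ubiquitin-conjugating enzyme, was at 39.1, 224 and 281 FPKM in WT and at 27.8, 163 and 398 FPKM in KO. Gm6644, 99.7% identical to Akr1b3, which encodes aldose reductase, was at 52.0, 185 and 218 FPKM in WT and at 38.3, 170 and 468 FPKM in KO. Akr1b3 itself was at 1.43 to 13.1 FPKM over the 6 columns, so the copy held 97.1% of their sum. Gm13363, 99.4% identical to Ptp4a1, a phosphatase, was at 24.4, 79.5 and 121 FPKM in WT and at 21.9, 80.9 and 179 FPKM in KO. Gm8801, related to Ppp1r10 (89.8% identity), which encodes a phosphatase regulator, was at 11.7, 38.0 and 75.2 FPKM in WT and at 9.99, 46.1 and 167 FPKM in KO. Gm4961, whose transcript is related in antisense to that of the kinesin gene Kif2c (88.0% identity), was at 29.6, 73.1 and 59.9993 FPKM in WT and at 24.8, 118 and 181 FPKM in KO. These 5 pseudogenes were lowest in KO NGO and highest in KO FGO.

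Reads of such a pair cannot be assigned with confidence, and the sources used here do not say how the authors treated reads that map to several places. A transcript at least 95% identical over at least 50% of its length was found in some other gene for 26 of the 89 with a transcript. For 23 the copy was on the sense strand and in the table: 12 coding genes, 11 pseudogenes and 0 long non-coding RNAs. Gm12070 is 99.9% identical to Gapdh, the glycolytic enzyme gene, and was at 58.5, 74.9 and 22.5 FPKM in WT and at 57.8, 127 and 87.4 FPKM in KO. Gapdh was listed at 10.5, 15.2 and 3.91 FPKM in WT and at 11.4, 23.4 and 15.6 FPKM in KO. The sum of both and Gm5069 was at 391% of WT in KO FGO, a difference of 1.93 (1.14 rescaled), and WT FGO lay below WT GO by 1.73. Gapdh and its copy thus took the same course, with the copy holding 84.2% of the sum.

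The pair Gm10052 and Gm5643, both copies of Hnrnpa1, which encodes an RNA-binding protein, went differently. Gm10052 was at 0.000177, 4.57 and 68.7 FPKM in WT and at 8.58e-11, 37.3 and 121 FPKM in KO, and was called 2.78 higher in KO at GO. Gm5643 was at 67.2, 159 and 104 FPKM in WT and at 70.04, 144 and 167 FPKM in KO. Summed with Hnrnpa1 and Hnrnpa1l2-ps2 the GO difference was 0.13, so the call ended. Gm8624, a copy of the ribosomal gene Rps23, was at 6.79 FPKM in WT GO and 2.51 FPKM in KO GO, a difference of -1.15. With Rps23, listed at 90.7 and 81.6 FPKM in the same columns, the difference was -0.21. Gm10639, near-identical to Gsta2, a glutathione S-transferase gene, had a GO difference of -1.46 alone and of -0.96 with its 3 copies. Summing also made a call at GO: Gm6712 went from 0.62 to 1.12 with the zinc finger genes Zfp97 and Zfp960.

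**Figure D2:**
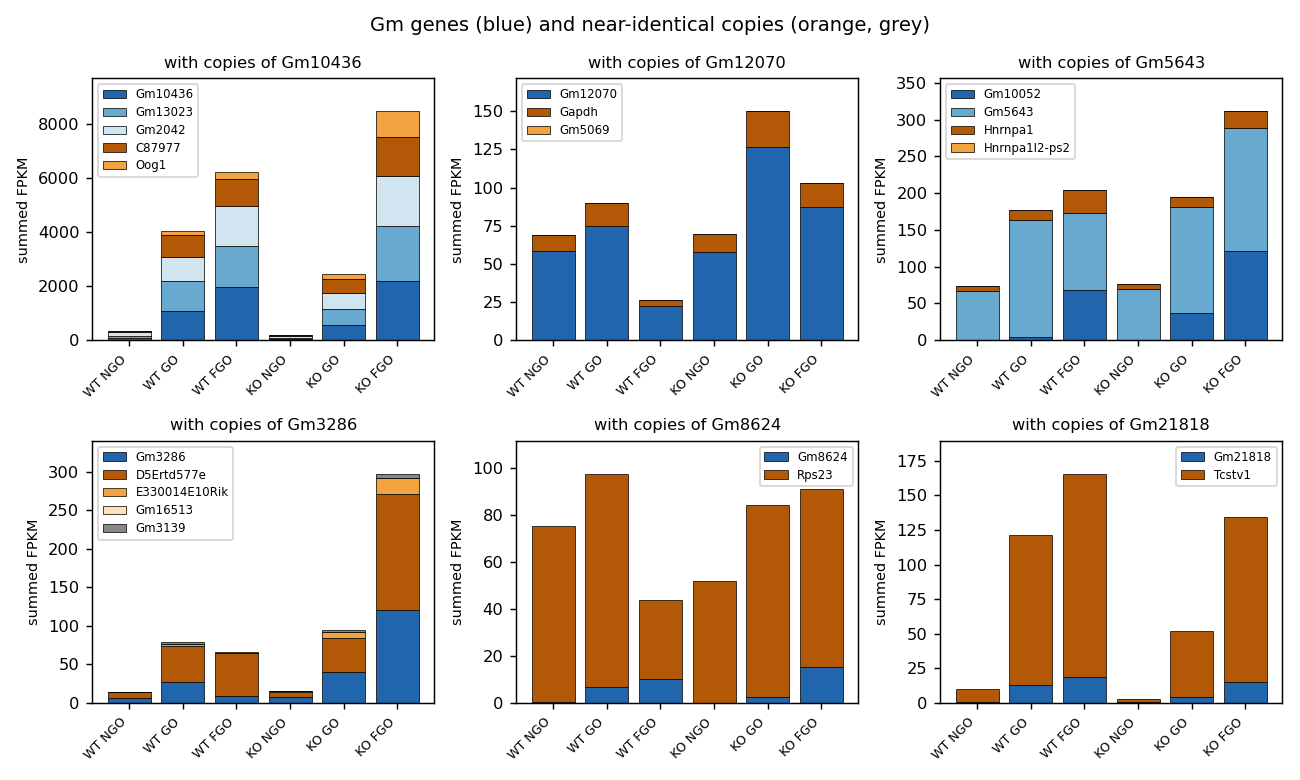
Summed FPKM (y axis, from 0) in the 6 columns for Gm genes (blue) stacked with their near-identical copies (orange and grey), in 6 of the 19 copy groups. Gm12070 makes up most of each Gapdh bar, whereas Gm8624 and Gm21818 are the smaller parts of the bars they share with Rps23 and Tcstv1.

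The long non-coding RNAs were mostly without relatives. The most abundant, Gm1965 (chr6:89140994-89147370), was at 56.8, 168 and 222 FPKM in WT and at 32.9, 190 and 468 FPKM in KO. Gm839 (chr6:89212197-89216179), on the opposite strand in the same region, was at 9.34, 50.4 and 99.0 FPKM in WT and at 6.07, 66.2 and 257 FPKM in KO. Plxna1 is the nearest coding gene of both, 168943 bases from Gm1965 and 100134 bases from Gm839. Gm11827 on chromosome 4 was at 5.72, 52.1 and 163 FPKM in WT and at 3.88, 29.4 and 225 FPKM in KO. The first 2 stood above WT in KO GO and the last 1 below. Gm29811 on chromosome 3 was at 11.4, 63.0 and 61.6 FPKM in WT and at 9.04, 70.3 and 102 FPKM in KO. Gm20362 was at 0.660, 15.3 and 35.9 FPKM in WT and at 0.245, 12.3 and 47.5 FPKM in KO. Gm17751 had the largest step from NGO to GO of the 102 in WT, with 0.611, 43.9 and 80.1 FPKM in WT and 0.0562, 24.8 and 128 FPKM in KO.

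Gene bodies of 30 of the 102 overlapped some other RefSeq gene, and 13 of these overlapped a coding gene, 10 on the opposite strand and 3 on the same, with Gm15941 counted in both, while the strand of Gm29679 is not given. The library protocol named in the labels keeps no strand, so reads of overlapping genes cannot be told apart. The exons of 3 overlapped exons of a coding gene, all on the opposite strand. Gm17484, which shares exon sequence with Bag4 and Ddhd2, was at 0.223, 0.00787 and 17.0 FPKM in WT and at 0.0771, 6.55 and 27.0 FPKM in KO. It was called 2.90 higher in KO at GO, where Bag4 was at 31.5 FPKM in WT and 17.1 FPKM in KO. Gm5475 overlaps Slc11a2, an iron transporter gene, and was at 7.39 FPKM in WT GO against 17.9 FPKM for Slc11a2. Gm5065 lies opposite Nlrp2, a maternal NLR-family gene, and was at 51.1, 81.3 and 105 FPKM in WT and at 39.5, 97.8 and 203 FPKM in KO.

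**Figure D3:**
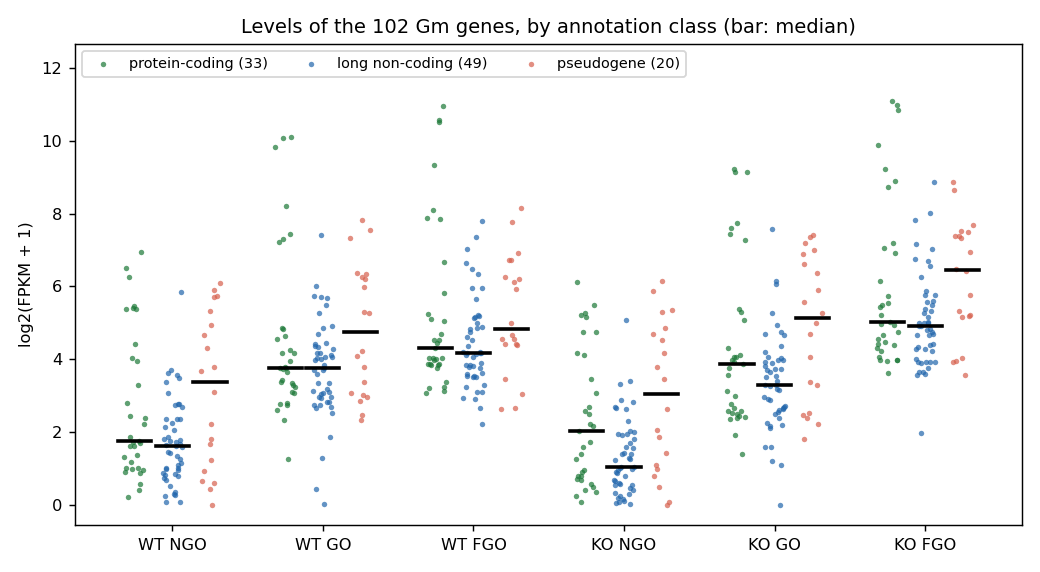
log2(FPKM + 1) of each of the 102 Gm genes (points) in the 6 columns, split into 33 coding genes, 49 long non-coding RNAs and 20 pseudogenes, with a bar at each median. The pseudogene medians are the highest in each column, at 85.9 FPKM in KO FGO.

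From NGO to GO nearly all of the Gm genes were higher. In WT 87 of 102 were called higher and 0 lower, where the same rule called 54.8% of all genes tested (10110, those averaging 1 FPKM or more) higher and 0.129% lower. In KO the counts were 94 higher and 1 lower, against 57.6% and 0.089% of all genes. The lower 1 was Gm29679. Of all genes at the cutoff of 5 FPKM that the Gm genes had to reach, 67.5% were called higher in WT and 74.5% in KO. The deposited columns rise as a whole at this step: the median of all genes moved by 1.06 in WT and 1.10 in KO, and by -0.01 and -0.02 after rescaling. On the rescaled values 44 were called higher and 1 lower in WT, against 6.06% and 3.27% of all genes, and 48 higher and 2 lower in KO, against 5.37% and 2.59%. Of the 6359 genes with neither Gm nor RIKEN clone symbols at the same cutoff of 5 FPKM, 6.07% were called higher in WT, and of the 132 with RIKEN clone symbols 16.7%.

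The median rescaled step in WT was 0.88 for the Gm genes, 1.03 for their long non-coding RNAs, 0.72 for the coding genes and 0.44 for the pseudogenes. The corresponding median was 0.20 for the RIKEN symbols and -0.01 for all genes. Of the named genes, Gm13023 and Gm36480 had steps of 3.82 and 3.53 as deposited (2.50 and 2.52 rescaled). At the other end, Gm4779 was at 20.5, 17.1 and 13.7 FPKM in WT and was called lower after rescaling (-1.52).

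From GO to FGO most of the Gm genes differed by less than a call in WT. As deposited 24 were called higher and 3 lower, where 6.5% and 9.22% of all genes were, and rescaled 23 higher and 3 lower, against 5.78% and 8.33%. With all columns set to equal totals the split was 18 higher and 5 lower. In KO 80 were called higher and 0 lower, against 39% and 0.514% of all genes. After rescaling these counts were 32 and 1, against 6.42% and 3.66%. Of all genes at the cutoff of 5 FPKM, 5.49% in WT and 46.2% in KO were called higher as deposited. A set of 20 Gm genes was called higher at both steps in WT, 19.6% of the 102, where 3.83% of all genes and 4.20% of genes with other symbols at the same cutoff were. Among these were Gm13103, Gm13089, Gm11827, Gm36480, Gm3259 and Gm20052, the last at 2.04, 16.9 and 60.8 FPKM in WT. The cutoff on the mean favours genes that are high late, which bears on all of these counts.

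Genes with their larger step from GO to FGO were also seen. Gm19583 was at 0.755 and 1.43 FPKM in WT NGO and GO and at 13.2 FPKM in WT FGO, and at 0.459, 1.12 and 14.2 FPKM in KO. Gm30214 was at 1.13, 4.69 and 17.3 FPKM in WT and at 0.329, 1.98 and 27.1 FPKM in KO. It was called higher at both steps, by 1.42 and 1.68 in WT and by 1.16 and 3.24 in KO. Courses that turned down in WT FGO belonged to Gm12070, Gm3286 and Gm15915, the last a long non-coding RNA opposite Ntn4 with 5.42, 11.1 and 3.64 FPKM in WT and 2.82, 10.6 and 10.8 FPKM in KO. Their differences from GO to FGO in WT were -1.69, -1.46 and -1.39, and all 3 were calls on both scales. For Gm3286 the call ended when its copies were summed, as given above, and another of its lines was at 21.1 and 19.2 FPKM in WT GO and FGO.

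**Figure D4:**
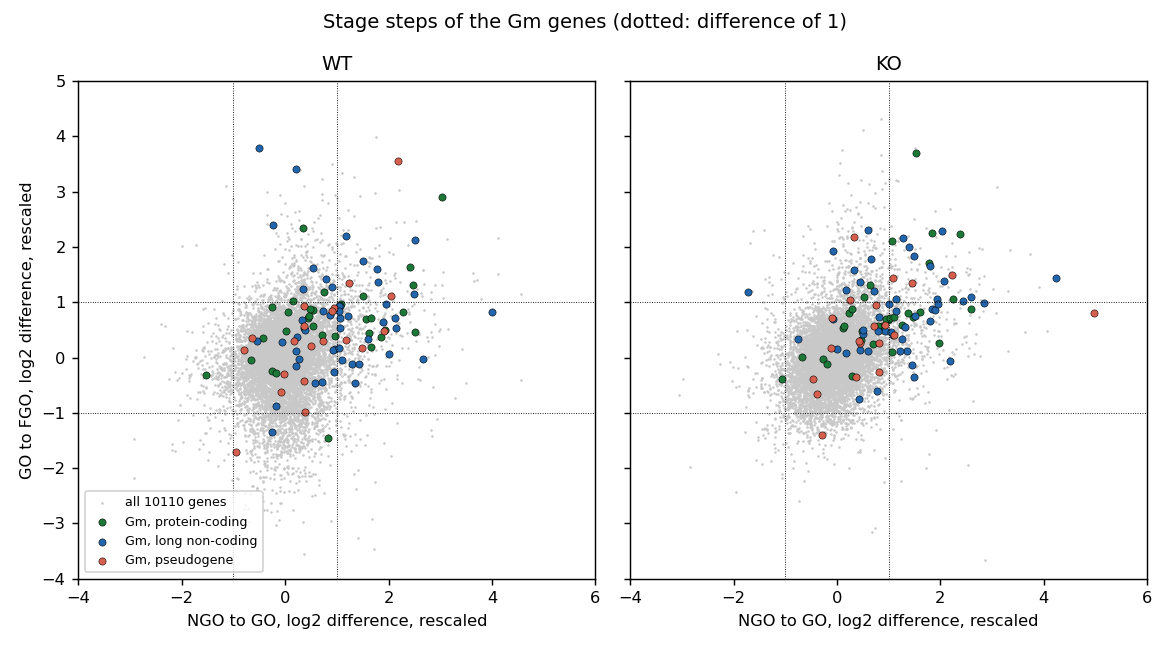
Rescaled log2 difference from NGO to GO (x axis) and from GO to FGO (y axis) in WT and in KO, with the Gm genes coloured by class over all 10110 genes in grey; dotted lines mark a difference of 1, and 2 genes in WT and 1 in KO lie outside the axes. The Gm genes sit mainly right of and above the grey centre, with 44 beyond the right-hand line in WT.

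KO was then set against WT at each stage. At NGO 0 of the 102 were called higher in KO and 4 lower, Gm13023, Gm13103, Gm3143 and Gm29679, where 0.0297% and 0.326% of all genes were called. After rescaling the counts were 0 and 3, without Gm13023 (-0.87), against 0.129% and 0.356% of all genes. With a pseudocount of 0.1 in place of 1, which gives low genes more weight, 0 were called higher and 23 lower, against 0.475% and 2.22% of all genes. With its copies summed, Gm13023 was at -0.78. The median difference of the 102 was -0.26 as deposited and -0.19 rescaled, and that of all genes -0.11 and 0.01. The comparison shares its columns with the stage steps above, so the 2 sets of values are not independent.

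At GO 3 were called higher in KO and 11 lower, against 0.95% and 2.03% of all genes. Rescaled, 3 were higher and 7 lower, against 1.05% and 1.28%. The higher ones, on both scales, were Gm10052 and Gm17484, with the limits given above, and Gm51425, a coding gene near Zfp960. The last was at 3.64, 7.44 and 15.5 FPKM in WT and at 4.96, 18.8 and 43.9 FPKM in KO. Its GO level was 253% of WT, a difference of 1.23 (1.27 rescaled). No GENCODE transcript matched Gm51425, so its copies could not be checked. Its window was 94.1% identical to that of Gm6712 and 87.3% to that of Zfp97, itself at 335% of WT in KO GO. The lower ones on both scales were Gm10639, Gm13089, Gm21818, Gm29679, Gm5, Gm5134 and Gm8624. Gm5134, a coding gene on chromosome 10, was at 0.478, 12.4 and 33.4 FPKM in WT and at 0.186, 4.92 and 52.0 FPKM in KO, a GO difference of -1.18 (-1.09 rescaled). Gm5, a long non-coding RNA near Fry, was at 1.65, 9.18 and 7.57 FPKM in WT and at 1.34, 3.35 and 11.5 FPKM in KO, a GO difference of -1.23 (-1.12 rescaled). At FGO both lay above WT as deposited, by 0.62 and 0.54, and slightly below it rescaled, by -0.14 and -0.16.

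Gm29679 was the 1 gene called lower in KO at all 3 stages on both scales. It was at 4.10, 12.1 and 13.4 FPKM in WT and at 1.05, 3e-05 and 2.90 FPKM in KO, which is 25.5% of WT at NGO and 21.6% at FGO. The KO GO value is listed near 0, so no fold is given there. Of its span of 2619 bases, 796 overlap the gene body of Prex1, a Rac exchange factor gene, its strand is not given, and no GENCODE transcript matched it. Prex1 was at 5.15, 7.54 and 6.96 FPKM in WT and at 5.57, 9.87 and 12.4 FPKM in KO.

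At FGO the scale decided the count. As deposited 25 of the 102 were called higher in KO and 1 lower, where 25.8% of all genes were called higher and 0.158% lower. After rescaling 2 were higher and 3 lower, against 1.68% and 0.94%, and the 2 were Gm3286 and Gm12070. The median of all genes moved from 0.72 as deposited to 0.02, and that of the 102 from 0.67 to -0.09. The 25 comprised 10 of the 33 coding genes, 8 of the 20 pseudogenes and 7 of the 49 long non-coding RNAs. They included Gm31369, a long non-coding RNA at 8.45 FPKM in WT FGO and 30.9 FPKM in KO FGO (1.76 as deposited, 0.98 rescaled), Gm4779 at 13.7 and 45.3 FPKM (1.65 and 0.87) and Gm11426 at 8.78 and 28.9 FPKM (1.61 and 0.84). Rescaled, the 3 lower ones were Gm29679 (-2.31), Gm527 (-1.19) and Gm21818 (-1.01). The granulosa markers, at 14.7 FPKM in WT FGO and 41.5 FPKM in KO FGO, moved with this comparison, and their part in it was not tested.

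**Figure D5:**
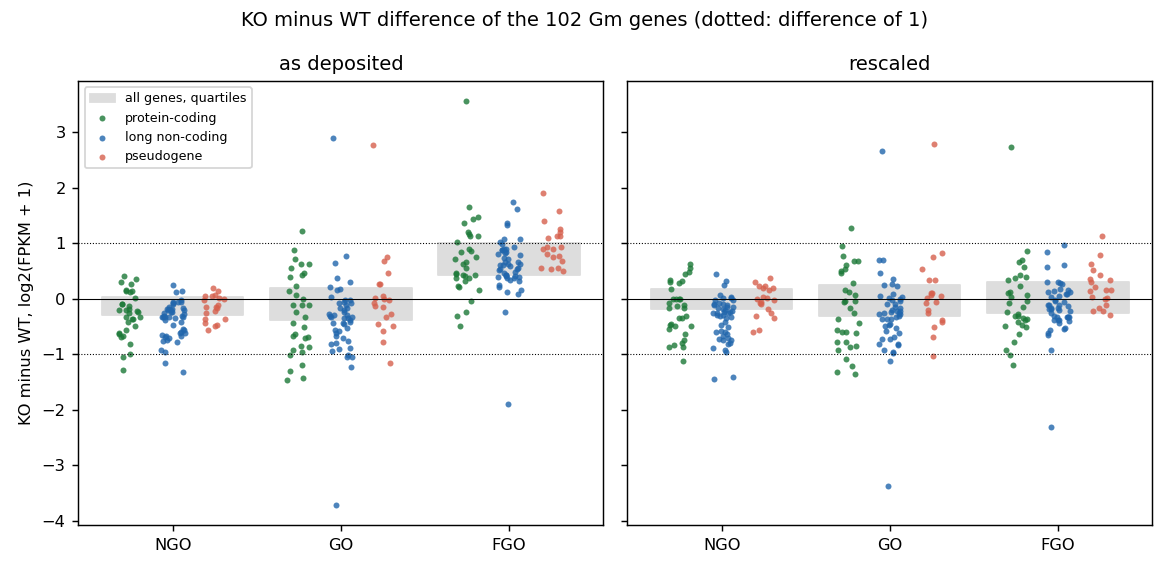
KO minus WT difference in log2(FPKM + 1) of the 102 Gm genes (points, coloured by class) at each stage, as deposited and rescaled, over a grey box from the lower to the upper quartile of all 10110 genes; dotted lines mark a difference of 1. At FGO most points lie above 0 as deposited, where the median of all genes also lies above 0, and fewer do after rescaling. Gm29679 lies lowest at NGO, GO and FGO on both scales.

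The highest column was KO FGO for 94 of the 102, as for 87.3% of genes with other symbols at the same cutoff. KO NGO was the lowest column for 81, and the share of other genes lowest there was not computed. The sum over all genes was also smallest in KO NGO, at 132093 FPKM against 156837 in WT NGO. No gene of the 102 was at exactly 0 in any column, and 9 had some column under 0.1 FPKM. These 9 are Gm17751, Gm10052, Gm17484, Gm19784, Gm7073, Gm8624, Gm1653, Gm29679 and Gm8817. Gm1653, a long non-coding RNA, was at 0.0491, 7.63 and 7.59 FPKM in WT and at 0.00468, 3.59 and 15.0 FPKM in KO. Together the 102 made up 0.727%, 1.62% and 2.13% of the summed FPKM in WT NGO, GO and FGO, and 0.625%, 1.33% and 2.01% in KO.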

How the data were processed

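The authors deposited FPKM values adjusted to the ERCC spike-in, 1 column per genotype and stage, and it is not stated here how each column was made from the 2 labelled samples. Neither the adjustment formula nor the annotation is given. Per the submitters' processing notes, the tools were HISAT2 2.2.1, Trim Galore 0.6.7 and Cufflinks 2.2.1, and the build was mm10. The Smart-seq2 libraries were made from 500 pg of cDNA and read as 150 bp pairs, per the labels' protocols.

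Of 25912 lines, 2 with a spreadsheet error mark were left out, among them Gm5901, whose other columns were at or near 0. With 1 column per group no test could be run, so the limma fits written for separate samples were replaced by the rule of a difference of at least 1 on log2(FPKM + 1). The table was computed in Python 3.11.15 with numpy 2.4.6 and pandas 2.3.3. The calling step was run on simulated columns with noise of an assumed size, which cannot show how far the real calls would repeat. Symbols were matched to RefSeq (GRCm38.p6), 96 by symbol and 6 by synonym. GENCODE M21 transcripts and RefSeq start-site windows were compared with blastn 2.17.0, near-identical meaning at least 95% identity over at least 50% of the transcript and related at least 70%. Motifs were searched on both strands.

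The genes named are the 20 of largest mean; in each comparison and direction the 5 called genes of largest difference where the higher column reached 5 FPKM; the 3 largest per class; family members and their copies; and those at the cutoff. Some others (those sharing the promoter block or overlapping a coding gene, Gm527, Gm4779, Gm4981, Gm5475, Gm20052 and Gm1653) were chosen after their values were seen. The genes, lists and comparisons were chosen with earlier results of these data known. Alternatives were a pseudocount of 0.1, median-ratio scaling, equal column totals, cutoffs of 10 and 2 FPKM and only symbols on 1 line.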

Additional observations from a re-analysis of the deposited data

How the results depend on the processing

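No paired analysis was possible because the table holds 1 column per group, and for the same reason neither the replicate block nor leaving out a sample was run. The counts of Gm genes called over the 7 comparisons were 4, 14 and 26 for KO minus WT at NGO, GO and FGO, 87 and 27 for the WT steps and 95 and 80 for the KO steps. A pseudocount of 0.1 raised the NGO count to 23, all lower in KO, where 2.22% of all genes were called lower under the same pseudocount. Median-ratio scaling gave 5 at FGO (2 higher and 3 lower), 45 for the WT step from NGO to GO, and 50 and 33 for the KO steps. Equal column totals gave 5 at FGO (3 higher and 2 lower), 48 for the WT step from NGO to GO, and 51 and 26 for the KO steps. A cutoff of 10 FPKM left 63 genes, of which 8 were called at GO, 53 and 15 at the WT steps and 59 and 46 at the KO steps. A cutoff of 2 FPKM gave 152 genes, with 42 called at the WT step from GO to FGO. An alternative chosen after the data were seen left out the 23 genes with a near-identical sense copy in the table. The 79 left, among them genes without a transcript that could not be checked, had 2 calls at NGO and 17 at FGO. These lower counts under a cutoff of 10 FPKM or without copies go with fewer genes. For the other shifts the cause was not tested. All other counts under these settings, and all under the use of symbols on 1 line only, stayed within 1.5 times, as did those of 2 more alternatives chosen after the data were seen, genes summed with their copies and genes with no column under 0.1 FPKM. Without a filter on the mean, the percentages of all genes called were lower, for example 10.7% at FGO in both directions together. The unknown read depth leaves the counting error of low values, such as those of the 9 genes with a column under 0.1 FPKM, unknown.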

Other observations

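The promoter block shown for 6 of the Gm genes, whose core is in the windows of 9, was also found at genes with established names. Windows resembling at least 1 of the 6 belonged to 73 genes, of which 24 were in the table, 8 of them abundant Gm genes. Of the other 16, 8 had a mean of at least 5 FPKM, against 28.7% of the 18609 genes in the table that have a window. The most abundant was Spin1, which encodes a histone-reading protein, at 270, 1337 and 1708 FPKM in WT NGO, GO and FGO and at 190, 1117 and 2574 FPKM in KO. Pla2g4c, a phospholipase gene, was at 110, 302 and 285 FPKM in WT and at 92.9, 423 and 704 FPKM in KO. Mbd3l2, a relative of the methyl-CpG-binding gene Mbd3, was at 0.188, 29.4 and 138 FPKM in WT and at 0.0967, 11.4 and 194 FPKM in KO. Cldn34b2, a claudin-family gene, was at 0.746, 7.38 and 64.9 FPKM in WT and at 0.883, 4.60 and 69.3 FPKM in KO. Mbd3l2 and Cldn34b2 thus stood near 0 in NGO and highest in FGO, whereas Spin1 and Pla2g4c were already high in NGO. The 9-base core alone was in the windows of 38 other genes in the table, and 8 of these reached 5 FPKM. Spin1 and Cldn34b2 were among the 38, whereas the windows of Pla2g4c and Mbd3l2 resembled the block without holding the core.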
